A study of Xenopus laevis with 31 samples.

Results

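Equatorial explants were compared with animal cap explants of the Xenopus laevis gastrula, both profiled at stage 11. The comparison used 5 of the 31 arrays of the series, 2 of equatorial tissue, which the labels also call mesendoderm, and 3 of animal cap ectoderm, chosen by the condition named for each sample. The series asked which transcripts are enriched in the gastrula endoderm and how nodal signalling, Mixer and Sox17 regulate them. Each explant sample combined about 50 explants from embryos of a single mating, with no injection named. Animal caps were cut at stage 9 and then kept until stage 11, whereas the labels give no cutting stage for the equatorial pieces, so that the region and the time in culture cannot be told apart. The remaining 26 arrays served as further conditions for the same probe sets. They held 2 samples of vegetal endoderm explants, 9 of whole control embryos at stage 11, likewise with no injection named, 4 of whole embryos at stage 18, 3 of eggs, and 8 of whole stage 11 embryos injected vegetally at the 2-cell stage. The injected samples comprised 3 with 1 ng of Cerberus-Short RNA, 2 with 40 ng of a Mixer antisense morpholino oligo (the title of 1 of them gives another dose), and 3 with antisense morpholino oligos to Sox17a1, Sox17a2 and Sox17b at 20 ng each. Whole-embryo samples combined about 20 embryos each, and no sample carried a control RNA or a control morpholino.

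The equatorial or marginal zone is the belt between the animal and vegetal poles of the frog embryo, and it gives rise to mesoderm and part of the endoderm. The animal cap is the ectodermal roof of the blastula, which forms epidermis and neural tissue in the embryo and epidermis when it is cultured alone. Nodal ligands of the TGF-β family, made in the vegetal cells, act through Smad2 and induce mesoderm and endoderm in the cells that receive them. Cerberus-Short is a piece of the secreted protein Cerberus that binds nodal ligands and blocks them. Mixer, a homeodomain factor, and the Sox17 proteins, HMG-box factors, act in endoderm formation, and a morpholino blocks their synthesis without removing the transcript.

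Intensities are linear RMA values, 1 per probe set and array, after values of 1000 and more were restored from the form in which they were written. Of 15611 probe sets on the array, 15445 were tested, after 120 control probe sets and 46 with an undecided value were left out. The array's probe sets could not be paired with gene names, because none matched the reference table used here, so that probe sets are given by their identifiers, their sequences are not shown, and the tissue labels could not be checked against known marker genes. Across all probe sets, log2 intensities of the 2 equatorial arrays correlated at r = 0.971 with each other, those of the 3 cap arrays at 0.964 to 0.983, and equatorial with cap arrays at 0.948 to 0.962. The log2 intensity of the 3′ minus the 5′ β-actin control probe set was -2.12 and -2.71 on the equatorial arrays and -3.18, -3.65 and -2.59 on the cap arrays. This ratio, a sign of RNA quality, was thus lower on average in the caps, and its part in the differences was not tested. A letter in the sample titles differed too, with H and K for equatorial replicates 1 and 2, B for cap replicates 1 and 2, and I for cap replicate 3.

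Most of the called differences were transcripts with more signal in equatorial tissue than in the cap. With limma's moderated test over all 31 arrays and Benjamini-Hochberg adjustment over 15445 probe sets, 125 probe sets passed an adjusted p of 0.05 together with a change of at least 2-fold (0.809% of those tested). Of these, 104 were higher in equatorial explants (0.673%) and 21 were higher in the cap (0.136%). Without the adjustment the split was nearly even, with 489 higher and 457 lower at a limma p under 0.05. Among probe sets that changed at least 2-fold but were not called, 241 were higher and 398 lower. The median log2 difference was 2.63 over the 104, -1.72 over the 21 and -0.02 over all probe sets. A change of more than 8-fold was seen in 42 of the 104 and in 3 of the 21. Equatorial and cap arrays did not overlap in any of the 125 probe sets, whereas 14.3% of all probe sets had both equatorial arrays above all caps and 15.5% had both below. The mean cap intensity was under 16, near the low end of the array's range, for 32 of the 104. On the log2 scale the median level of the 104 was 4.66 in the cap and 7.53 in equatorial tissue, while that of the 21 was 7.29 in the cap and 5.50 in equatorial tissue. In tissue samples such as these, fewer cells that hold a transcript and less of it per cell cannot be told apart. Without equatorial replicate 1 the test called 73 probe sets and without equatorial replicate 2 it called 68, the lone array being taken to vary like the other groups, and of the 104 and the 21, 45 and 4 were called whichever of the 5 arrays was left out. When the title letter entered the fit as a block of fixed terms 78 were called, 74 higher and 4 lower, and with array weights 310, of which 203 were higher and 107 lower.

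**Figure D1:**
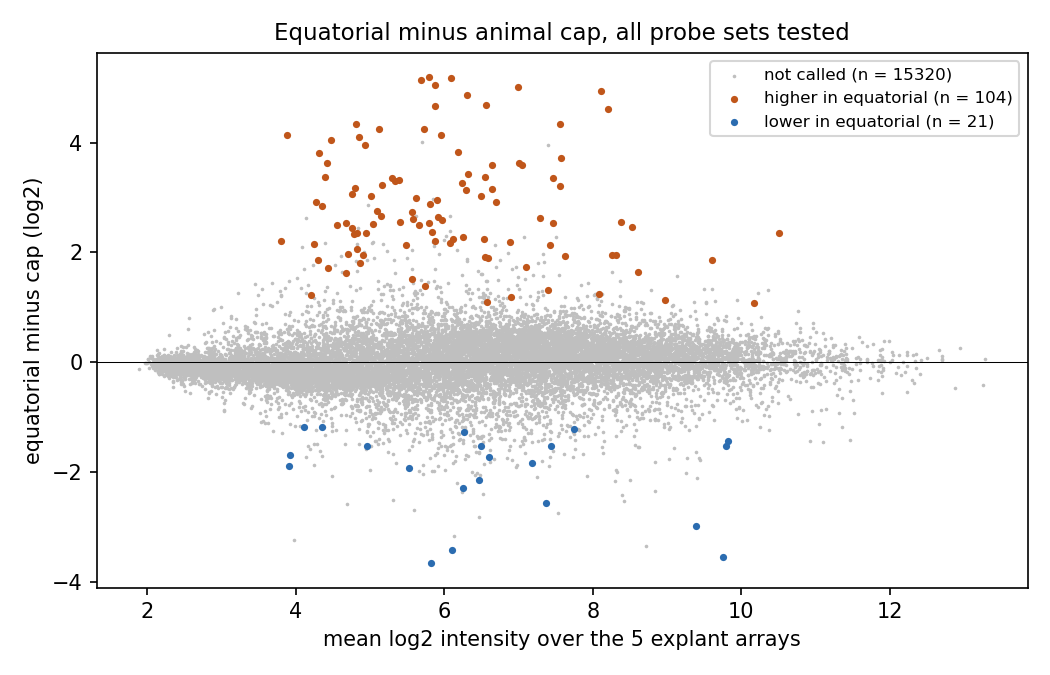
Equatorial minus animal cap log2 difference (vertical axis) of each of the 15445 tested probe sets against its mean log2 intensity over the 5 explant arrays (horizontal axis); coloured points are the 104 called higher and the 21 called lower in equatorial tissue. The called points reach further above 0 than below it, with medians of 2.63 and -1.72.

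The 15 probe sets with the largest excess in equatorial tissue differed from the cap by 17.6-fold to 36.4-fold. Cap intensities of several of them lay near the low end of the array's range, at the level of the eggs, so that the exact size and the order of these folds are uncertain. Xl.368.1.S1_at had intensities of 574 and 404 in equatorial explants and 13.7, 14.0 and 12.0 in the caps, a 36.4-fold difference. Its log2 difference was 5.19 ± 0.39 (SE, 2 against 3 arrays; limma adjusted p = 3.94e-09). Vegetal explants and whole gastrulae held more of it than the equatorial explants, with 2028 and 2247 in vegetal explants and 874 to 1377 (median 1050) in whole gastrulae. Eggs read 14.3 to 15.7, near the level of the cap. Stage 18 embryos read 11.7 to 43.0, from just below the lowest cap to above the highest, and below every whole gastrula. Of the 3 ages and 3 explants, it was thus high only at the gastrula stage, and there in vegetal and equatorial tissue.

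Xl.1108.1.S1_at gave 686 and 495 in equatorial explants and 16.9, 18.8 and 13.4 in the caps, a 36.0-fold difference (limma adjusted p = 1.25e-05). Vegetal explants read 1182 and 1304 and whole gastrulae 298 to 1030 (median 610). Unlike the first probe set, this one was still present at stage 18, at 227 to 939, so that its stage 18 arrays overlapped the gastrula range.

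Xl.642.1.S1_at, next by size, read 332 and 579 in equatorial explants and 12.0, 13.8 and 11.7 in the caps, a 35.2-fold difference (limma adjusted p = 3.94e-09). Vegetal explants held only 51.5 and 28.1, and whole gastrulae 150 to 382 (median 281). Both equatorial arrays were above both vegetal arrays and all caps, so that among the 3 explants the equatorial belt held the most of it.

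The next probe sets by size varied in their vegetal level. Xl.3549.1.S2_at, at 406 and 568 in equatorial explants and 11.9 to 18.5 in the caps, differed 33.0-fold, and its vegetal arrays, at 500 and 360, lay around the equatorial ones. Xl.514.1.S1_at read 848 and 1231 against 21.0 to 56.6 in the caps, a 32.2-fold difference, with 452 and 296 in vegetal explants. Xl.656.1.S1_at read 668 and 541 against 16.4 to 27.3 in the caps, a 29.3-fold difference, with 754 and 1036 in vegetal explants. In each of these 3 the lowest equatorial array was more than 8-fold above the highest cap array. Xl.3549.1.S1_at, which shares an identifier number with Xl.3549.1.S2_at, did not pass the test against the cap (log2 difference 4.01, limma adjusted p = 0.177).

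Xl.1775.1.S1_at differed from the rest of the 15 by its level in the egg. It read 1974 and 2380 in equatorial explants and 42.0, 115 and 72.6 in the caps, a 30.7-fold difference (limma adjusted p = 1.76e-05), and eggs already held 1309 to 1673. Its egg level did not pass the test against whole gastrulae (log2 difference -0.66), and stage 18 embryos were down to 14.5 to 172. Vegetal explants read 3294 and 2549, so that of the 3 explants only the cap stood below the egg. The call against the cap was lost with the title letter as a block.

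For the other 8 of the 15 the difference ran from 17.6-fold in Xl.637.1.A1_at to 25.6-fold in Xl.49.1.S1_at. Xl.3352.1.S1_at showed the widest spread in the cap, with 131, 191 and 22.3, against 1838 and 2200 in equatorial explants, and its vegetal arrays were far apart at 3943 and 430. Its call against the cap was lost when only equatorial and cap arrays, or only explant arrays, entered the fit. Xl.483.1.S1_at, at 153 and 270 against 9.30 to 12.9 in the caps, had the largest error of the 15 (log2 difference 4.24 ± 0.94 SE, limma adjusted p = 0.0179). Its call was lost without any one of equatorial replicate 1, equatorial replicate 2, cap replicate 1 or cap replicate 3, and with a pseudocount of 16. The plot of the largest differences shows both tissues array by array.

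**Figure D2:**
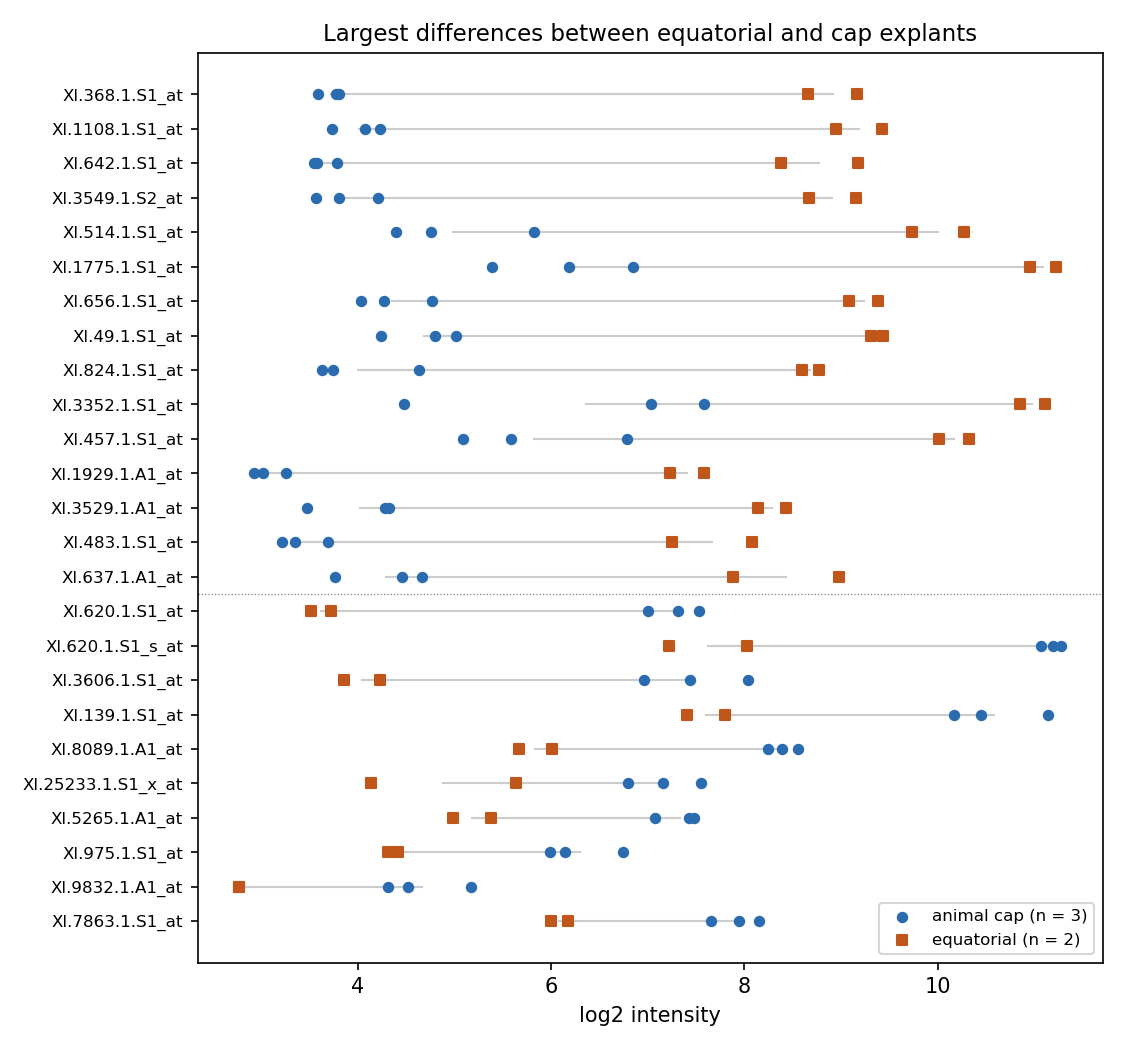
Log2 intensity (horizontal axis) of the 15 probe sets with the largest excess and the 10 with the largest deficit in equatorial tissue, 1 row each, on the 2 equatorial arrays (squares) and the 3 cap arrays (circles). Rows were chosen among calls without overlap, so that the equatorial arrays lie to one side of the caps in every row. For Xl.642.1.S1_at they read 8.37 and 9.18 against 3.55 to 3.79.

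Over the 104, the median log2 excess over the cap was 2.66 for equatorial replicate 1 and 2.71 for equatorial replicate 2. The 104 were chosen on these same arrays, so that similar medians are largely set by that choice. Replicate 1 was the higher one in 46 of the 104. The replicates differed by more than 2-fold in 6, among them Xl.637.1.A1_at, which read 237 and 505, and Xl.16875.1.A1_at, which read 216 and 102. Equatorial replicate 1 and the first 2 caps each shared a title letter with whole-embryo controls, so that each tissue could be set against a control of its own letter. Measured that way, 103 of the 104 were higher and 20 of the 21 were lower in equatorial tissue, with median log2 differences of 2.71 and -1.68, against -0.03 over all probe sets. Since equatorial replicate 1 and these caps are arrays on which the lists were chosen, these counts are largely set by that choice. The exceptions were Xl.3111.1.A1_at and Xl.25233.1.S1_x_at.

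For most of these transcripts the cap was called below whole gastrulae, and for few of them were the equatorial explants. These comparisons reuse the explant arrays, so that they are not independent of the selection of the 104. The median log2 level of the 104 was 7.97 in whole gastrulae and 8.08 in vegetal explants, beside 7.53 in equatorial explants and 4.66 in the cap. Against whole gastrulae, the cap was lower at 96 of the 104 (1.61% of all probe sets), whereas equatorial explants were lower at 8 (0.175%) and higher at 1, Xl.23900.1.A1_at (0.0259%). Vegetal explants were above the cap at 83 of the 104 (6.43%). Without equatorial replicate 1 or equatorial replicate 2, the 8 became 0 and 2.

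Xl.23900.1.A1_at read 56.9 and 44.3 in equatorial explants, 12.9 to 19.6 in the caps and 9.73 to 12.8 in whole gastrulae, a 4.39-fold excess over the whole embryo (limma adjusted p = 1.2e-05). Over all probe sets, 31 differed between equatorial explants and whole gastrulae (0.201%), 4 of them higher. The largest of these 4, Xl.16457.1.A1_at, read 262 and 208 in equatorial explants and 10.0 to 32.7 in whole gastrulae, a 16.5-fold excess. Its caps, at 24.9 to 123, were also called above the whole embryo, although the lowest cap lay inside the whole-gastrula range. The other 2, Xl.2213.1.A1_at and Xl.14546.1.A1_at, were 4.42-fold and 2.31-fold higher. Xl.2213.1.A1_at read 98.65 and 32.26 in equatorial explants, the lower array inside the cap range of 10.49 to 33.1. Xl.14546.1.A1_at read 80.35 and 59.58, the lower array inside the whole-gastrula range of 23.44 to 62.95. These 4 were singled out after their values were seen. All 27 probe sets lower in equatorial explants than in whole gastrulae were also lower than in vegetal explants (2.42% of all probe sets), and all 27 were higher in vegetal explants than in the cap (6.43%). The first of these overlaps is partly set by the choice of the 27, since both comparisons use the same equatorial arrays.

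Set against the vegetal explants, the 104 fell into 3 groups. In 10 the equatorial level was the higher one (2.42% of all probe sets), in 20 the vegetal level was (2.42%), and 74 did not pass the test. The equatorial minus vegetal log2 difference had a median of -0.38 over the 104 and -0.14 over all probe sets. It was below 0 in 57 of the 104, and the share of all probe sets below 0 was not counted. Vegetal replicate 2 had a 3′ minus 5′ β-actin value of 1.70, beside -1.50 in replicate 1, and its part in these counts was not tested. Without it, 7 and 16 of the 104 were called higher and lower; without equatorial replicate 1 the counts were 6 and 13, and without equatorial replicate 2 they were 6 and 11.

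Among the 10 with the higher equatorial level, Xl.642.1.S1_at exceeded the vegetal explants 11.5-fold (log2 difference 3.53 ± 0.42 SE, limma adjusted p = 4.11e-06). Xl.644.1.S1_at followed the same order, at 514 and 671 in equatorial, 116 and 87.9 in vegetal and 43.1 to 53.7 in cap explants. Xl.958.1.S2_at read 154 and 85.0, 21.6 and 13.0, and 9.61 to 19.3 in the same tissues, a 6.83-fold excess over vegetal explants that lost its call without equatorial replicate 1 or vegetal replicate 2. Xl.20011.1.S1_at and Xl.20011.2.S1_a_at, which share an identifier number, also belonged here, at 4.69-fold and 5.12-fold over the vegetal explants and 7.40-fold and 5.14-fold over the caps. Another probe set of that number, Xl.20011.2.A1_at, did not pass the test against the cap (log2 difference -0.06, limma adjusted p = 0.983). Xl.24337.1.A1_at, the last of those named, had lower intensities, at 41.4 and 43.8 in equatorial, 6.76 and 10.2 in vegetal and 8.76 to 18.0 in cap explants. The other 4 were Xl.403.1.S1_at, Xl.525.1.S1_at, Xl.523.1.S1_at and Xl.2803.1.S1_at. Of the 10, 1 was also called higher in vegetal explants than in the cap, beside 6.43% of all probe sets. Xl.20011.2.S1_a_at lost its call against vegetal explants without equatorial replicate 1. The calls against the cap were lost without equatorial replicate 1 for Xl.958.1.S2_at, Xl.20011.2.S1_a_at and Xl.24337.1.A1_at, and without equatorial replicate 2, cap replicate 1 or cap replicate 3 or with the title letter as a block, for the last of these. Xl.24337.1.A1_at also lost it when only equatorial and cap arrays, or only explant arrays, entered the fit.

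The 20 with the higher vegetal level had, by the way they were chosen, an equatorial level between those of vegetal explants and cap. Xl.44.1.S1_s_at read 3200 and 3054 in vegetal, 160 and 127 in equatorial and 18.1 to 43.6 in cap explants. It was 22.0-fold lower in equatorial than in vegetal explants (limma adjusted p = 1.41e-05) and 5.63-fold higher than in the cap. Another probe set with its identifier number, Xl.44.1.S1_at, did not pass the test against the cap (log2 difference 1.06, limma adjusted p = 0.647). Xl.16875.1.A1_at, at 3579 and 1486 in vegetal explants, Xl.215.1.S1_at, at 3949 and 1887, and Xl.3831.1.S1_at, at 1289 and 850, were 15.5-fold, 14.9-fold and 17.8-fold lower in equatorial explants. For these 4 of the 20, the equatorial excess over the cap was the less firm of the 2 steps. Each lost that call without equatorial replicate 1, without equatorial replicate 2 and with the title letter as a block. All but Xl.215.1.S1_at also lost it with a pseudocount of 16. None of the 4 lost its call against vegetal explants in any alternative that was run.

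**Figure D3:**
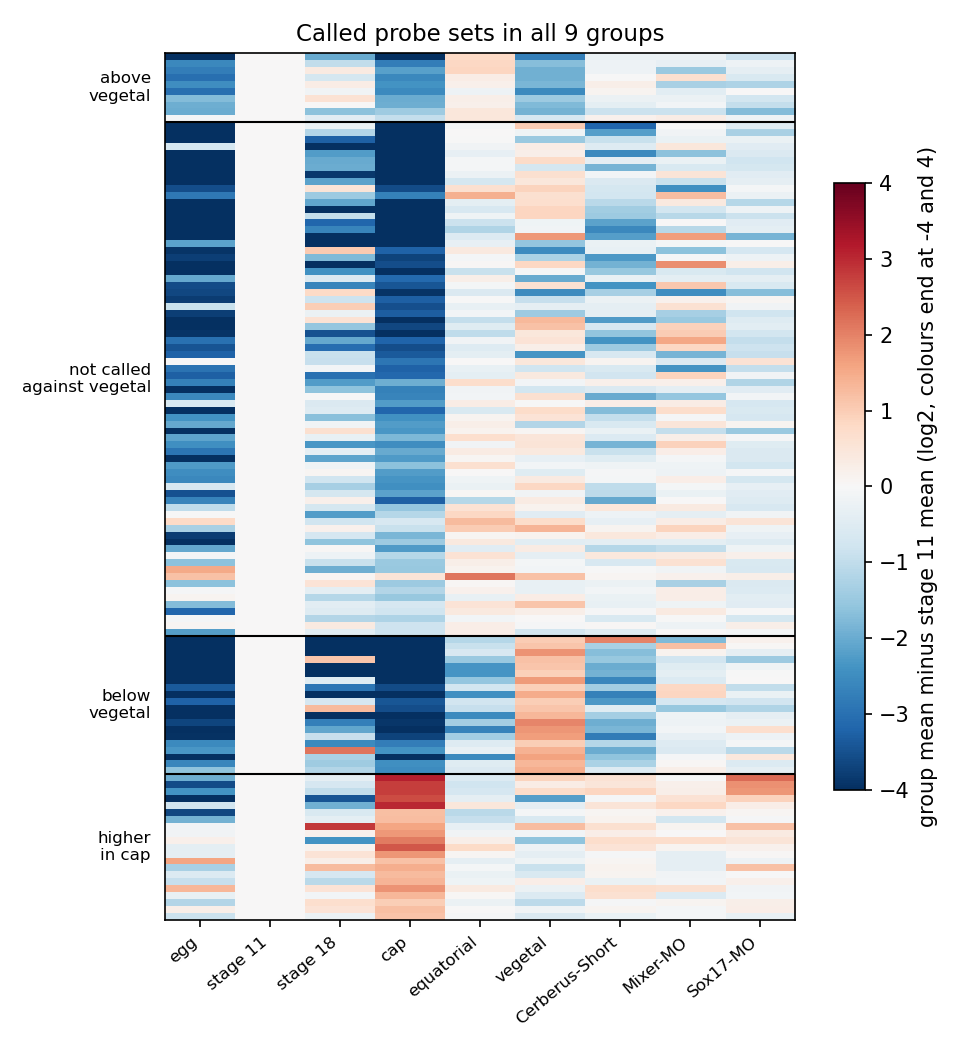
Mean log2 intensity of the 125 called probe sets in each of the 9 groups, relative to the mean of whole stage 11 embryos, with colours ending at -4 and 4; rows are grouped as 10 above vegetal explants, 74 not called against them, 20 below them, and 21 higher in the cap. Cap and egg columns are low for most of the 104, whereas the equatorial column mostly stays near the whole embryo. The 20 below vegetal explants are the exception, with a median equatorial minus whole embryo log2 difference of -1.24.

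Most of the equatorial-higher transcripts were lower in the egg than in the gastrula. Against whole gastrulae, 89 of the 104 were lower in the egg (10.6% of all probe sets) and 2 were higher (11.4%), with a median log2 difference of -3.23. The median log2 level of the 104 was 4.39 in eggs, close to the 4.66 of the caps, and the mean egg intensity was under 16 for 35 of them. The 2 with the higher egg level were Xl.462.1.S1_at (log2 difference 1.53) and Xl.23900.1.A1_at (1.17). By stage 18, 51 of the 104 had fallen (14.2%) and 3 had risen (12.2%), with a median log2 difference of -0.97. The 3 that rose were Xl.6392.1.A1_at, Xl.3378.1.S1_at and Xl.24776.1.A1_at, by 1.10, 1.27 and 2.14 on the log2 scale.

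Counted together, 45 of the 104 were lower both in the egg and at stage 18 than at stage 11, a course that peaks at the gastrula among the 3 ages sampled. A further 41 were lower in the egg and not called at stage 18, and 3 were lower in the egg and higher at stage 18. Taken singly, 10.6% of all probe sets were lower in the egg and 14.2% were lower at stage 18. The share of all probe sets with each joint course was not counted, so that these joint counts have no background to be set against. Xl.824.1.S1_at was one of the first kind, with 14.3 to 18.9 in eggs, 280 to 1301 (median 868) in whole gastrulae and 14.6 to 22.2 at stage 18. Xl.1929.1.A1_at followed the same course, from 7.87 to 9.72 in eggs through 123 to 494 to 8.04 to 16.5 at stage 18. In both, no egg or stage 18 array reached the gastrula range. Of the 10 above the vegetal level, 9 were lower in the egg and 2 were lower at stage 18, while of the 20 with the higher vegetal level, 20 were lower in the egg and 14 at stage 18; the difference between these shares was not tested.

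**Figure D4:**
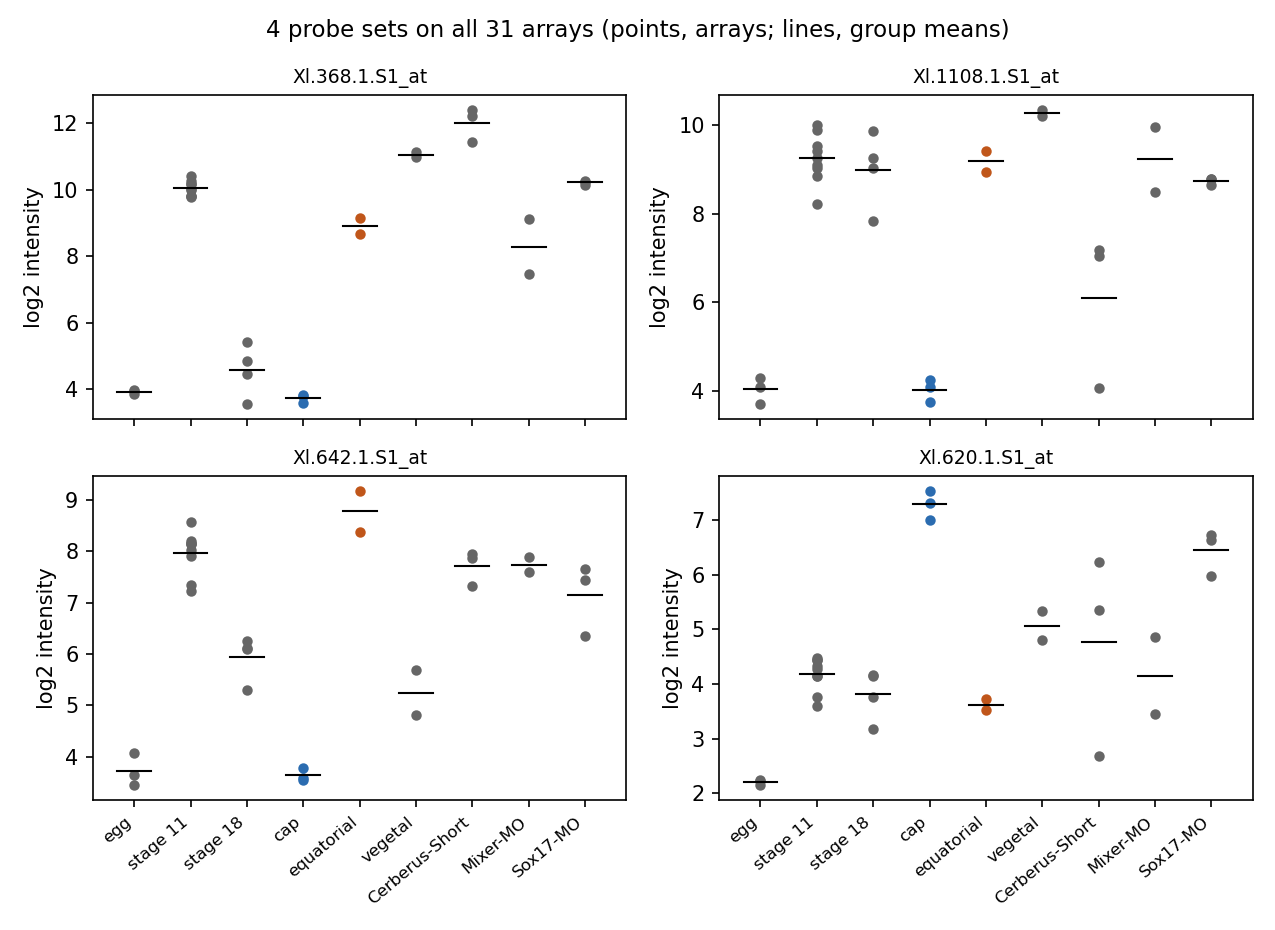
Log2 intensity of Xl.368.1.S1_at, Xl.1108.1.S1_at, Xl.642.1.S1_at and Xl.620.1.S1_at on all 31 arrays, by group (points are arrays and lines group means). The first 3 are high in equatorial explants and low in the caps, and Xl.620.1.S1_at shows the opposite, with log2 intensities of 3.51 and 3.73 against 7.00 to 7.53.

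Embryos in which nodal signalling was blocked had less of many transcripts of the equatorial list. These samples and the whole-embryo controls share no array with the comparison of equatorial and cap explants, although all arrays entered the same estimate of variance. For the injected embryos, an adjusted p under 0.05 was the only criterion. With Cerberus-Short, 28 of the 104 fell (0.317% of all probe sets), which makes up 28 of the 49 that fell on the whole array, and 1 rose (0.0129%). The median log2 difference was -0.64 over the 104 and 0.01 over all probe sets, and 91 of the 104 lay below 0. All 28 were also higher in vegetal explants than in the cap (6.43% of all probe sets) and lower in the egg than in whole gastrulae (10.6%), calls that 83 and 89 of the 104 carried. These overlaps are not independent. The egg comparison shares its controls with the Cerberus-Short one, and the vegetal comparison uses the caps on which the 104 were chosen. The 3′ minus 5′ β-actin values of the Cerberus-Short arrays were -2.68, 0.43 and -2.92, and their part in these counts was not tested. Those of the stage 11 controls ran from -3.71 to 0.90. Control replicate 9, which shares its title letter with Cerberus-Short replicate 2, read -0.39. Without Cerberus-Short replicate 3 the count was 16.

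Xl.1108.1.S1_at, one of the strongest equatorial transcripts, also had the largest fall with Cerberus-Short. The injected samples read 131, 145 and 16.7, against 298 to 1030 in the controls, an 8.95-fold fall (log2 difference -3.16, limma adjusted p = 0.000428). All 3 injected arrays lay below all 9 controls. Xl.2554.1.A1_at read 46.2, 30.9 and 13.1 against 121 to 264 (6.96-fold lower, limma adjusted p = 1.87e-05), and Xl.212.2.S1_a_at read 122, 177 and 116 against 624 to 1077 (6.02-fold lower, limma adjusted p = 7.35e-05). Those 3 kept the call in every alternative that was run. Xl.16875.1.A1_at fell 6.55-fold, Xl.183.1.S1_at 6.12-fold and Xl.656.1.S1_at 5.88-fold, in each case with the lowest value, between 17.2 and 36.4, on Cerberus-Short replicate 3. Without that replicate the calls of Xl.16875.1.A1_at and Xl.656.1.S1_at were lost.

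Xl.368.1.S1_at, the probe set with the largest equatorial excess, went the other way. It read 2775, 4812 and 5460 in the Cerberus-Short samples, all above the controls at 874 to 1377, a 3.94-fold rise (limma adjusted p = 0.000417). The written form did not settle the value of 4812, which was set to the nearest level of the row. Xl.368.1.S1_at therefore did not enter the alternative with only settled values. This probe set was 1 of 2 on the whole array that rose. The Cerberus-Short levels also exceeded those of the vegetal explants, which were 2028 and 2247.

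Falls with Cerberus-Short were counted in each of the 3 groups set by the vegetal explants. Of the 10 above the vegetal level none was called with Cerberus-Short, and their log2 differences ran from -0.87 to 0.24 with a median of -0.21. Of the 74 not called against vegetal explants 15 fell, with a median of -0.60, and of the 20 with the higher vegetal level 13 fell and Xl.368.1.S1_at rose, with a median of -1.65. In limma's test 0.317% of all probe sets fell. Without Cerberus-Short replicate 3, 0, 9 and 7 fell in the 3 groups. The difference between the groups was not tested. Xl.642.1.S1_at shows the first kind, with 246, 159 and 235 in Cerberus-Short samples inside the control range of 150 to 382, and Xl.644.1.S1_at, with 497, 171 and 280, lay inside its control range of 168 to 542.

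The 3 Cerberus-Short samples each shared a title letter with 1 control embryo sample, which allowed a comparison within a letter. Replicate 1 was below its control at 59.6% of the 104, replicate 2 at 74.0% and replicate 3 at 90.4%, while 47.2%, 45.3% and 45.0% of all probe sets were below. The median log2 difference of the 104 was -0.16, -0.43 and -1.42 in replicates 1, 2 and 3. All 3 samples thus lay below their control for more of the 104 than of all probe sets, with replicate 3 farthest.

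**Figure D5:**
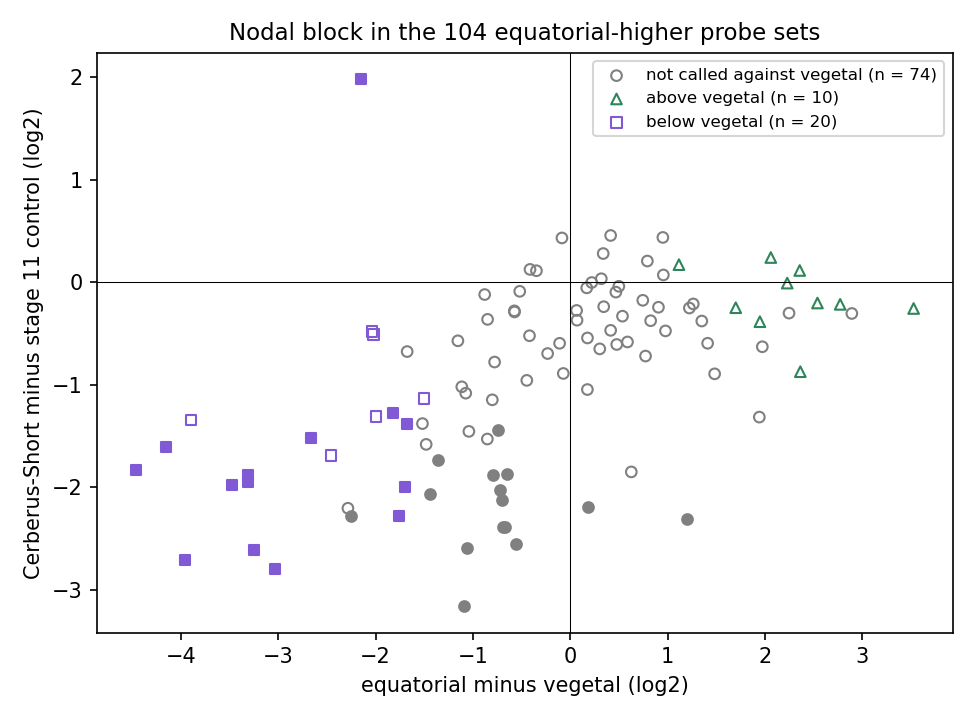
Log2 difference of the 104 equatorial-higher probe sets between Cerberus-Short and control embryos (vertical axis) against their equatorial minus vegetal log2 difference (horizontal axis); filled symbols passed the adjusted p of 0.05 with Cerberus-Short. None of the 10 called above vegetal explants is filled, and Xl.368.1.S1_at is the 1 that rose.

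With the morpholinos against Mixer and Sox17, few of the 104 passed the test. The median log2 difference in Mixer morphants was -0.11 over the 104 and -0.01 over all probe sets. Of the 104 only Xl.368.1.S1_at fell (log2 difference -1.76, limma adjusted p = 0.0458), beside 0.0259% of all probe sets that fell. That call was lost without Mixer-MO replicate 1, the sample whose title gives another dose. It read 175 on that array and 559 on Mixer-MO replicate 2. The 3′ minus 5′ β-actin values of the 2 Mixer-MO arrays were far apart, at -2.68 and 1.49, and their part in this result was not tested. Control replicate 7, which shares its title letter with Mixer-MO replicate 2, read 0.90. In Sox17 morphants 4 of the 104 fell (0.686% of all probe sets), namely Xl.6392.1.A1_at, Xl.7815.1.A1_at, Xl.24337.1.A1_at and Xl.2237.1.S2_at, by 1.46, 1.47, 1.74 and 0.71 on the log2 scale. The median was -0.45 over the 104 and 0.04 over all probe sets, and 89 of the 104 lay below 0. At an unadjusted limma p under 0.05, 31 of the 104 were lower in Sox17 morphants and 0 were higher. By the same measure 52 were lower and 2 higher with Cerberus-Short, and 21 lower and 12 higher in Mixer morphants. The shares of all probe sets at this unadjusted threshold were not counted, so that these counts have no background to be set against. Of the 4 called in Sox17 morphants, 1 also fell with Cerberus-Short. Without Sox17-MO replicate 3, 2 of the 104 were called. Of the 4, Xl.24337.1.A1_at was also above the vegetal level. Within a title letter, Sox17-MO replicates 1, 2 and 3 lay below their control at 82.7%, 60.6% and 89.4% of the 104 (45.7%, 48.9% and 47.1% of all probe sets), and Mixer-MO replicate 2 at 62.5% (45.1%).

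The 21 transcripts higher in the cap formed a shorter list. With the title letter as a block, 8 of the 10 named lost their call, the exceptions being Xl.8089.1.A1_at and Xl.9832.1.A1_at. Xl.620.1.S1_at led it, with 185, 159 and 128 in the caps and 11.4 and 13.2 in equatorial explants, a 12.7-fold difference (log2 difference -3.66 ± 0.57 SE, limma adjusted p = 0.000371). A second probe set with its identifier number, Xl.620.1.S1_s_at, read 2479, 2146 and 2336 in the caps and 150 and 261 in equatorial explants, an 11.7-fold difference, so that both had every cap array above both equatorial arrays. Xl.3606.1.S1_at read 263, 125 and 173 against 14.6 and 18.8, a 10.8-fold difference (limma adjusted p = 0.00103). For these 3, whole gastrulae, at 12.1 to 22.1, 178 to 450 and 19.4 to 39.1, were close to the equatorial level and below every cap. Vegetal explants read 40.1 and 27.8 for Xl.620.1.S1_at, above the equatorial arrays and below the caps.

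Xl.139.1.S1_at showed another pattern, with 2250, 1146 and 1395 in the caps, 223 and 170 in equatorial and 66.3 and 44.2 in vegetal explants, so that the level fell from the animal to the vegetal side. Its difference between equatorial tissue and cap was 7.88-fold (limma adjusted p = 6.74e-05), and it was 3.59-fold higher in equatorial than in vegetal explants (limma adjusted p = 0.0158). Xl.7863.1.S1_at followed it, with 285, 202 and 247 in the caps, 64.2 and 72.0 in equatorial and 18.9 and 18.6 in vegetal explants. Both were thus transcripts graded over the 3 explants, with the cap highest. Xl.8089.1.A1_at read 375, 303 and 336 in the caps and 64.4 and 50.8 in equatorial explants, a 5.88-fold difference. The remaining named ones, Xl.25233.1.S1_x_at, Xl.5265.1.A1_at, Xl.975.1.S1_at and Xl.9832.1.A1_at, differed by 4.87-fold to 3.73-fold. Xl.9832.1.A1_at read 36, 22.99 and 19.92 in the caps and 6.83 on both equatorial arrays, near the low end of the array's range. Its call was lost with a pseudocount of 16. Without equatorial replicate 2 the calls of Xl.8089.1.A1_at, Xl.7863.1.S1_at, Xl.25233.1.S1_x_at, Xl.5265.1.A1_at and Xl.975.1.S1_at were lost, and without equatorial replicate 1 those of Xl.620.1.S1_s_at, Xl.7863.1.S1_at, Xl.5265.1.A1_at and Xl.975.1.S1_at. Leaving out cap replicate 1 or cap replicate 3 ended the calls of Xl.25233.1.S1_x_at and Xl.5265.1.A1_at, cap replicate 2 that of Xl.5265.1.A1_at, and cap replicate 3 that of Xl.975.1.S1_at.

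Of the 21, 19 were lower in vegetal explants than in the cap (6.66% of all probe sets), the exceptions being Xl.25233.1.S1_x_at and Xl.975.1.S1_at, and 18 were higher in the cap than in whole gastrulae (0.758%). None of the 21 passed limma's test between equatorial explants and whole gastrulae, beside 0.201% of all probe sets, so that this 0 does not set the list apart. Each of these comparisons reuses arrays on which the 21 were chosen, so that they are not independent of that choice. With Cerberus-Short none of the 21 passed limma's test, with a median log2 difference of 0.14, beside 0.317% of all probe sets that fell and 0.0129% that rose. With the Mixer morpholino none did, beside 0.0259% of all probe sets that fell and 0.0388% that rose. At shares this small, 0 of 21 does not set the list apart. With the Sox17 morpholinos 4 of the 21 were higher than in controls (0.265% of all probe sets), namely Xl.620.1.S1_at, Xl.3606.1.S1_at, Xl.975.1.S1_at and Xl.16543.1.S1_at, by 2.27, 1.75, 1.16 and 1.17 on the log2 scale. Without Sox17-MO replicate 2 or without Sox17-MO replicate 3 none of these was called. In the egg 8 of the 21 were lower than in whole gastrulae (10.6% of all probe sets) and 2 were higher (11.4%). At stage 18, 4 were lower (14.2%) and 2 were higher (12.2%), among them Xl.975.1.S1_at, which rose from 18.4 to 40.6 in whole gastrulae to 126 to 260. Without equatorial replicate 1 and without equatorial replicate 2, 11 and 6 probe sets were called higher in the cap.

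Several of the called probe sets share an identifier number with others on the array, and need not be separate transcripts. The 104 carried 100 distinct numbers and the 21 carried 20. For 15 numbers with more than 1 probe set, 36 probe sets were tested, of which 20 were called and 16 were not. Of these 16, 11 had the direction of the called one.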

How the data were processed

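Per the labels' protocols, 10 µg of total RNA was labelled and profiled on Affymetrix Xenopus GeneChips. The deposited values are linear intensities, summarised by RMA in GeneSpring 7.1 per the authors' deposited checklist; the submitters' processing notes also name RMA. Values of 1000 and more were deposited with a mark that reads as a decimal point. Their size and written form settled 90.5% of 483941 values and a further 45801 were set to the nearest level of their row; of 5101 settled values that were hidden, 5095 were recovered. For 20 probe sets the absolute level was undetermined, which leaves differences unaffected.

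A linear model with 1 mean per group was fitted to the log2 intensities of all 31 arrays (limma 3.58.1, R 4.3.3), with moderated two-sided tests on 22 residual degrees of freedom, and was tested on simulated data. Calls required a Benjamini-Hochberg adjusted p under 0.05 and, except for injected embryos, a 2-fold change; SE is that of the fit. Which samples came from one mating is not labelled, so the p-values reflect only the spread among these samples, and the number of arrays limits the precision. Named probe sets were the 15 higher and 10 lower calls with the largest difference among those whose groups did not overlap, up to 6 higher calls with the largest fall with Cerberus-Short, up to 6 with the largest excess over and up to 4 with the largest deficit against vegetal explants, 37 in all; others are named where a count of 5 or fewer or a pattern singled them out after their values were seen. The comparison, members and lists were chosen with earlier results of these data known. Gene and marker lists could not be applied, because no probe set could be paired with a gene name.

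Alternatives were other arrays in the fit, the replicate number or title letter as a block, quantile normalization, median centring, leaving out the lowest 40% of probe sets, a pseudocount of 16, an intensity trend with robust variance, array weights, only settled values, and each replicate left out. Leaving out vegetal replicate 2 was chosen after seeing the data.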

Additional observations from a re-analysis of the deposited data

Results flagged for a closer look

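Of 74 groups of 4 or 9 arrays tested for 1 array far from the others, over the named probe sets, 8 had such an array, and chance gives about 1 in 20. Of these 8, 4 lay on replicate 2 of the stage 18 embryos, whose 3′ minus 5′ β-actin log2 value was 0.38. There Xl.642.1.S1_at had a log2 intensity of 5.29 (the other 3 arrays 6.10 to 6.25), Xl.3352.1.S1_at 7.25 (9.44 to 9.89), Xl.3606.1.S1_at 2.83 (3.99 to 4.07) and Xl.3831.1.S1_at 5.54 (7.59 to 7.86). The other 4 lay on different stage 11 control arrays. Xl.656.1.S1_at was high on replicate 9, at 10.38 (the other 8 arrays 9.20 to 9.78), and Xl.975.1.S1_at on replicate 8, at 5.34 (4.20 to 4.78). Xl.20011.2.S1_a_at was low on replicate 7, at 6.34 (7.23 to 8.04), and Xl.215.1.S1_at on replicate 6, at 9.28 (9.97 to 10.41). No equatorial or cap group was large enough for this test.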

How the results depend on the processing

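Of 53 results on named probe sets, 26 kept their call in every alternative, 18 lost it in 1 to 3, 9 in more than 3, and 0 changed direction. The counts moved as follows, and the cause was not tested. The 21 cap-higher calls became 57 with only the equatorial and cap arrays, 45 with only explant arrays, 11 without the lowest 40% of probe sets and 12 with only settled values. Leaving out 1 replicate gave 68 to 127 calls in all, 62 to 106 higher and 6 to 21 lower; of the 104, 6 to 7 and 11 to 16 were then above and below vegetal explants and 0 to 2 below whole gastrulae. With Cerberus-Short 16 to 27 of the 104 fell, 7 to 10 of those below and 9 to 17 of those not called against vegetal explants; Mixer-MO gave 0 to 1 and Sox17-MO 2 to 4 falls, and 0 to 3 rises in the 21. Replicate numbers did not pair the samples (correlations of deviations -0.0977 and 0.0355). With the number as a replicate block, 168 were called, 53 of them lower; Cerberus-Short falls were 16, with 8 in each of the groups below and not called against vegetal explants, Mixer-MO falls 4, Sox17-MO falls 1 and rises in the 21 0. With the title letter as a block of fixed terms, where equatorial replicate 2, the sole array of letter K, carries no weight in the contrast, calls were 78, 4 of them lower, equatorial falls against whole gastrulae 0, Cerberus-Short falls 18 (9 of those not called against vegetal explants), Mixer-MO falls 0 and Sox17-MO rises in the 21 0. As a random term, the letter gave 17 above vegetal explants and 12 Sox17-MO falls. Array weights gave 310 calls, 203 higher and 107 lower, with 0 Mixer-MO and 14 Sox17-MO falls. With only settled values, 6 and 13 of the 104 were above and below vegetal explants, 4 were below whole gastrulae, 0 fell with Mixer-MO and 2 with Sox17-MO, and 11 and 12 of the 21 were above whole gastrulae and vegetal explants. Without the lowest 40% these last were 7 and 9, and Sox17-MO rises were 2.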
